A study of Mus musculus with 4 samples.

Results

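Interferon-stimulated genes are genes that cells transcribe after an interferon binds its receptor. A list of 37 mouse genes of this kind, given by symbol, was followed through every gated cell type of the ovary in 4 single-cell libraries. Of the 37 symbols, 35 were found among the 32285 gene names of the files. Mx1 and Mx2, which encode antiviral GTPases, were not among those names and have no value here. By role the 35 comprised 4 sensors of foreign RNA or DNA (Ifih1, Ddx58, Dhx58, Zbp1), 4 transcription factors (Irf1, Irf7, Irf9, Stat2), 14 antiviral effectors (Isg15, Usp18, the Ifit and Oas families, Rsad2, Ifi44, Ifi35, Rtp4, Xaf1), 5 membrane proteins (Ifitm1, Ifitm2, Ifitm3, Bst2, Ifi27), 5 GTPases (Gbp2, Gbp3, Gbp7, Igtp, Irgm1) and 3 genes of antigen processing (Psmb8, Psmb9, Tap1).

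The 4 groups were mice treated from postnatal day 25 with vehicle (PBS or saline, the control), with doxorubicin at 3 mg/kg, with doxorubicin at 3 mg/kg plus AMH at 0.75 mg/kg, or with AMH at 0.75 mg/kg alone. Doxorubicin is a DNA-damaging chemotherapy drug given here in 2 weekly doses, and AMH (anti-Müllerian hormone) is a hormone that granulosa cells make. The tissue was collected 4 hours after the final dose. Each group pools single ovaries of 5 animals into 1 library, and variation from animal to animal was therefore not captured. The libraries were of 3′ transcript ends and are always listed with the control first, then doxorubicin, then doxorubicin+AMH, and AMH last.

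Type I interferons act through the receptor Ifnar1/Ifnar2 and the kinases Jak1 and Tyk2, and a complex that includes Stat2 and Irf9 then binds a promoter element called the ISRE. Interferon gamma acts through Ifngr1/Ifngr2 and on another promoter element, the GAS, at genes such as Irf1. In uninfected tissue a low level of these genes is usually present, and macrophages and endothelial cells are known for carrying more of it than most other cells.

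The promoters of 4 effectors that differed most between libraries in one class of stroma, and that of Irf1 for contrast, are shown from RefSeq (build GRCm38.p6), 5′ to 3′ in the direction of the gene, with capitals for the letters of the 2 elements. The ISRE was searched as GAAA, any 2 bases and GAAA again, or as TTTC, any 2 bases and TTTC for the other strand. The GAS was searched as TTC, any 3 bases and GAA, which reads the same on both strands. Overlapping matches were all counted. For Ifit1, 18 bases that another annotation places in the gene are left out.
Isg15, chr4:156200819-156201068, minus strand: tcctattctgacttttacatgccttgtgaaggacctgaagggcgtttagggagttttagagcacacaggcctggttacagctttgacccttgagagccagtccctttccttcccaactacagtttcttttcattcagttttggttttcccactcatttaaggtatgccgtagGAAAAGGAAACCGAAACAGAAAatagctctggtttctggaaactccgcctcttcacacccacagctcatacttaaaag
Ifit1, chr19:34640639-34640870, plus strand: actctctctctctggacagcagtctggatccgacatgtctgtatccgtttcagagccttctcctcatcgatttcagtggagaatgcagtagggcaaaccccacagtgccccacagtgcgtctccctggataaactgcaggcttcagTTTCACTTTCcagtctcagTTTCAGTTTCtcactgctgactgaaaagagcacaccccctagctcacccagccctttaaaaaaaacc
Ifit3, chr19:34583279-34583528, plus strand: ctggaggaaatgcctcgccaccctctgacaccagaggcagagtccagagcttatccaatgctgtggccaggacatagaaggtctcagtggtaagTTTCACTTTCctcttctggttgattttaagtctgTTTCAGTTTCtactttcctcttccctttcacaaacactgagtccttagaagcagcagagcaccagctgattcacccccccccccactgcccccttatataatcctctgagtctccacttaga
Rsad2, chr12:26456453-26456702, minus strand: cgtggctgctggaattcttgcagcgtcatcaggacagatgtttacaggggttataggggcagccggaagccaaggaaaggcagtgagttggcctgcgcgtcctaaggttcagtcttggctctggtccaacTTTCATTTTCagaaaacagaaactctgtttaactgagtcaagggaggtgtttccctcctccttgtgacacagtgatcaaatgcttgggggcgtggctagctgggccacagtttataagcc
Irf1, chr11:53769764-53770013, plus strand: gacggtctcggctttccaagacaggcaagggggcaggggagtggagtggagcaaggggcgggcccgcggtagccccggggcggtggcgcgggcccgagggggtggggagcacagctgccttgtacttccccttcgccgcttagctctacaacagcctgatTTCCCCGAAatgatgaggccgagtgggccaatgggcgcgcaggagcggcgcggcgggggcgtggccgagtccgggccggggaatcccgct

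In Isg15 there were 3 overlapping ISRE matches, which began 78, 72 and 66 bases before the RefSeq start. Ifit1 and Ifit3 each held 2, Rsad2 held 1, and Irf1 held a GAS match 90 bases before its start and no ISRE match. Of the 29 members with a promoter entry, 13 (44.8%) held the ISRE letters in the 250 bases before the start, against 3.04% of 27025 genes, and 7 (24.1%) held the GAS letters, against 7.18%. All 5 GTPases held an ISRE match and 5 of 11 effectors did, whereas neither of the sensors with an entry nor any of the 3 antigen-processing genes did. A match is a description of the letters, and their absence says nothing of the factor.

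The deposited libraries held 7141 to 9478 cells and 138647495 to 178279122 UMIs (molecular tags that count each captured transcript once), and 28451 of 33639 cells were kept. Levels are given as CPM, the UMIs of a gene per 1000000 UMIs of all cells of one type in one library, and intervals are 95% exact Poisson or Clopper-Pearson intervals that cover counting error only. With 1 library per group there is no test of a difference between treatments. A ratio of single genes is a log2 ratio with 5 CPM added to both values, and "past 1.5-fold" is counted only among genes that averaged 20 CPM or more across the libraries of that type (the 20 CPM floor). Between 11 and 24 cell barcodes were shared by pairs of libraries.

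Cells were assigned by marker genes, one cell at a time, to granulosa cells (8618), theca (2384), stroma (9862 without the next type), Clec3b/Dpt fibroblasts (990), mural smooth muscle (1352), blood endothelium (453), macrophages (531) and a surface epithelial gate (567), and 10.7% of cells stayed ungated. Clec3b/Dpt fibroblasts were stromal cells that also carried Clec3b, Dpt, Pi16, Cd248, Efemp1 and Pcolce2, and 19.2% of them lay within 0.05 of the score limit. The label surface epithelial did not hold for its whole gate: clusters 23 and 28 of a joint clustering of all cells were led by Ovgp1, the oviductal glycoprotein, and had 0 and 1 gated cells in the doxorubicin library. That gate is therefore described by cluster. Other gates held unlike clusters too: the granulosa gate took in cluster 16, led by the oocyte genes Ooep and Dppa3 (39, 57, 58 and 152 cells), and the other stroma took in cluster 0, led by Acta2, Tagln and Myh11 (252, 210, 267 and 235 cells), and cluster 8, led by Prss35 and Aldh1a1 (13, 19, 113 and 120 cells).

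Among the 8 types above, most interferon-stimulated genes were lowest in granulosa cells and highest in blood endothelium or macrophages. The lowest mean level fell in granulosa cells for 33 of 35 members. Of these 8 types, the highest was blood endothelium for 13 members, macrophages for 13, the surface epithelial gate for 6, theca for 2 and Clec3b/Dpt fibroblasts for 1. Isg15, a ubiquitin-like protein attached to other proteins, had means of 126 CPM in endothelium and 125 CPM in macrophages, which are neighbours that their libraries do not separate, against 2.18 CPM in granulosa cells.

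**Figure D1:**
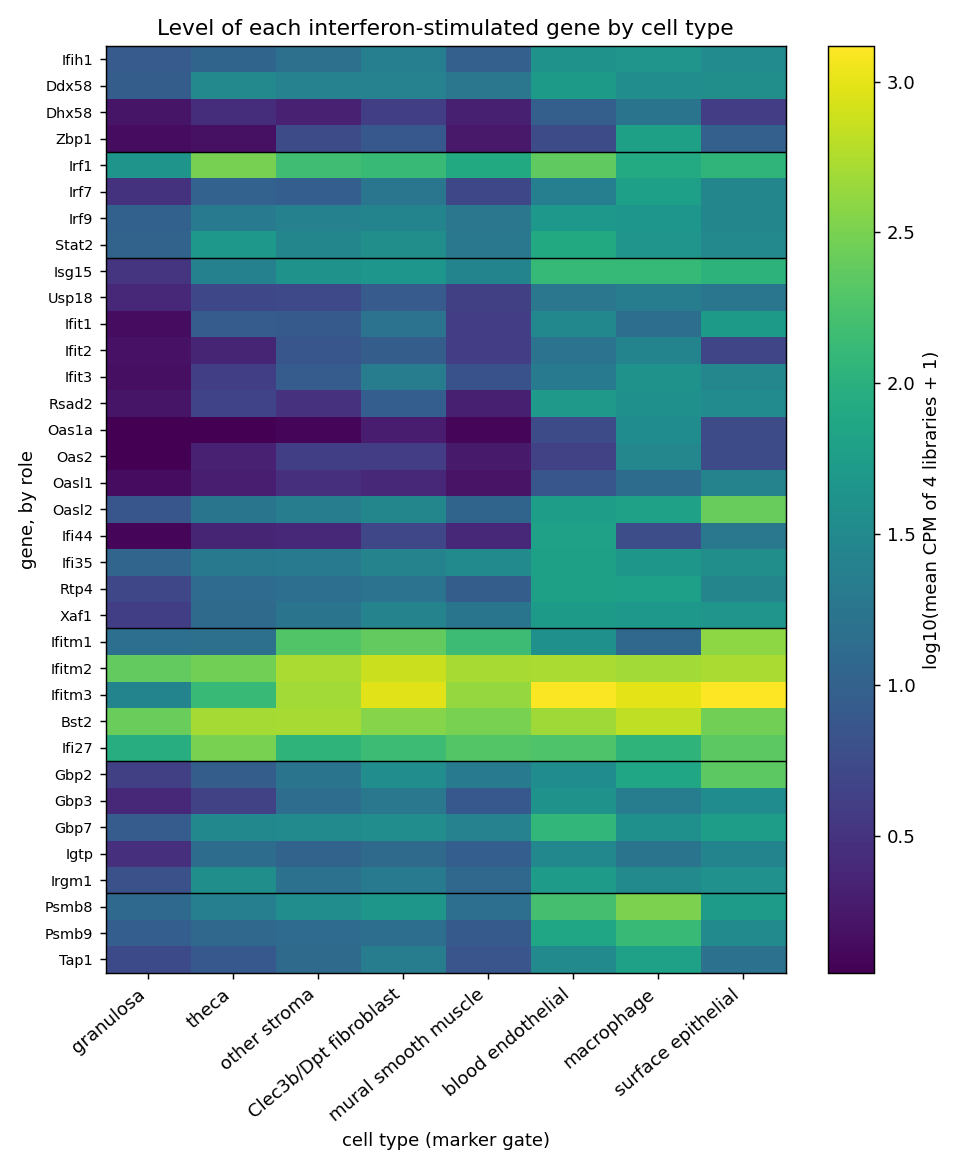
Level of the 35 interferon-stimulated genes (rows, by role) in 8 marker-gated cell types (columns), as log10 of the mean CPM of the 4 libraries plus 1. The granulosa column holds the lowest value of 33 of the 35 genes, and Ifitm2, Ifitm3, Bst2, Ifi27 and Irf1 reach 20 CPM in every column.

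The membrane proteins had the highest summed level of the 6 roles in each of the 8 types. Ifitm2, Ifitm3 and Bst2, which block viral entry or release, together with Ifi27 and the transcription factor Irf1 were the 5 members above the 20 CPM floor in all 8 types. Psmb8, a subunit of the immunoproteasome, averaged 325 CPM in macrophages and 164 CPM in endothelium, the next type by mean. Its lowest macrophage library was above the highest endothelial library. Within these 8 types the same held, against the next type by mean, for other members. In macrophages these were Zbp1 (61.4 CPM), Ifit2 (25.9 CPM), Oas1a (33.5 CPM), Oas2 (28.3 CPM), Psmb9 (132 CPM) and Tap1 (62.5 CPM). In endothelium they were Stat2 (80.8 CPM), Ifi44 (62.2 CPM) and Ifi35 (61.5 CPM). Dhx58, a regulator of RNA sensing, reached 20 CPM in no type and was highest in macrophages at 15.8 CPM. Oas1a shares 61.9% of the 31-base words at its transcript ends with Oas1g, and Ifitm2 27.8% with Gm8865, so their UMIs could be split between copies.

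Some types with under 50 cells in a library were higher still. Psmb8 was at 626.5, 681, 779.8 and 619 CPM in T or NK cells, and Psmb9 at 305, 379, 347.5 and 184 CPM, all above the macrophage means. Tap1 was at 71.5, 112.5, 123 and 87.0 CPM and Zbp1 at 59.6, 124, 81.8 and 56.3 CPM in those cells, from 11 to 42 UMIs per library. In lymphatic endothelium Isg15 was at 200.2, 249, 129 and 76.9 CPM and Ifi44 at 90.4, 120.1, 47.6 and 36.7 CPM, above blood endothelium in the control and doxorubicin libraries. In erythroid cells Rsad2 was at 167, 104, 51.1 and 67.5 CPM, from 19 to 62 UMIs per library.

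In Clec3b/Dpt fibroblasts the antiviral effectors were higher in both libraries from doxorubicin-treated mice. The 14 effectors summed to 134 (interval 123 to 145), 351 (332 to 371), 219.6 (199 to 242) and 124 (111 to 138) CPM. The doxorubicin library was highest, the doxorubicin+AMH library lay between, and the intervals of the control and AMH libraries overlapped. The log2 ratio was 1.39 (1.24 to 1.54, a fold of 2.62) for doxorubicin / control and 0.83 (0.62 to 1.04, a fold of 1.78) with AMH on both sides (doxorubicin+AMH / AMH), contrasts that share no library. It was -0.11 (-0.31 to 0.09) in AMH / control and -0.68 (-0.84 to -0.51) in doxorubicin+AMH / doxorubicin.

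The other stroma did not show this order. Its effector sums were 179, 162, 120.1 and 113 CPM, so the control library was highest there and the log2 ratios were -0.14 (-0.19 to -0.09) in doxorubicin / control and 0.08 (0.01 to 0.15) in doxorubicin+AMH / AMH. In granulosa cells the sums were 33.0, 32.8, 28.8 and 26.8 CPM, with log2 ratios of -0.01 (-0.10 to 0.08) and 0.11 (0.01 to 0.20). That the 3 classes differ in their ratio cannot be tested with 1 library per group.

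**Figure D2:**
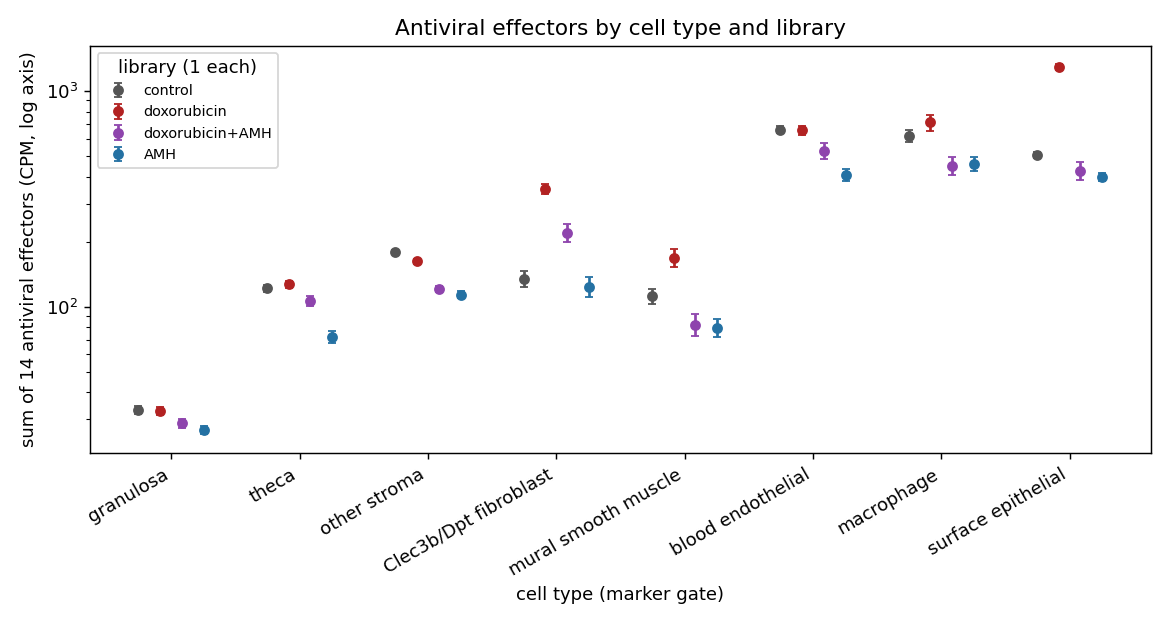
Sum of the 14 antiviral effectors in CPM (log axis) in 8 marker-gated cell types for the 4 libraries, with 95% exact Poisson intervals (counting error only). In Clec3b/Dpt fibroblasts the doxorubicin library is at 351 CPM and the control at 134 CPM, and in most other types the 2 libraries with AMH lie lowest.

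Single effectors in Clec3b/Dpt fibroblasts followed the sum to different degrees. Isg15 (chr4:156199424-156200818, minus strand) was at 20.6, 90.3, 46.3 and 20.4 CPM, with log2 ratios of 1.89 in doxorubicin / control and 1.01 in doxorubicin+AMH / AMH. Both doxorubicin libraries lay above both others. Ifit3 (chr19:34583531-34588731, plus strand) was at 8.20, 47.3, 16.4 and 11.1 CPM, a log2 ratio of 1.98 in doxorubicin / control and 0.40 in doxorubicin+AMH / AMH. Its transcript ends share 30.5% of their 31-base words with the neighbouring copy Ifit3b, so the split of UMIs between the copies is uncertain. Oasl2, an OAS-like protein, was at 18.9, 41.9, 28.3 and 19.7 CPM, a log2 ratio of 0.97 in doxorubicin / control and 0.43 in doxorubicin+AMH / AMH.

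Effectors with means under 20 CPM, named here after their values were seen, did not all have the order of the sum. Ifit1 (chr19:34640871-34650009, plus strand) was at 5.22, 30.1, 21.3 and 5.94 CPM. Rsad2 (viperin, chr12:26442746-26456452, minus strand), which makes a chain-terminating nucleotide, was at 1.74, 24.5, 4.36 and 2.23 CPM, from 7, 87, 8 and 6 UMIs. In both genes the doxorubicin library stood highest, and for Rsad2 the other 3 had overlapping intervals. Ifit2 (chr19:34550694-34576419, plus strand), which neighbours Ifit1 and Ifit3 on the same chromosome, went the other way at 10.2, 3.94, 10.4 and 7.06 CPM, with the doxorubicin library lowest (41 and 14 UMIs in the control and doxorubicin libraries).

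**Figure D3:**
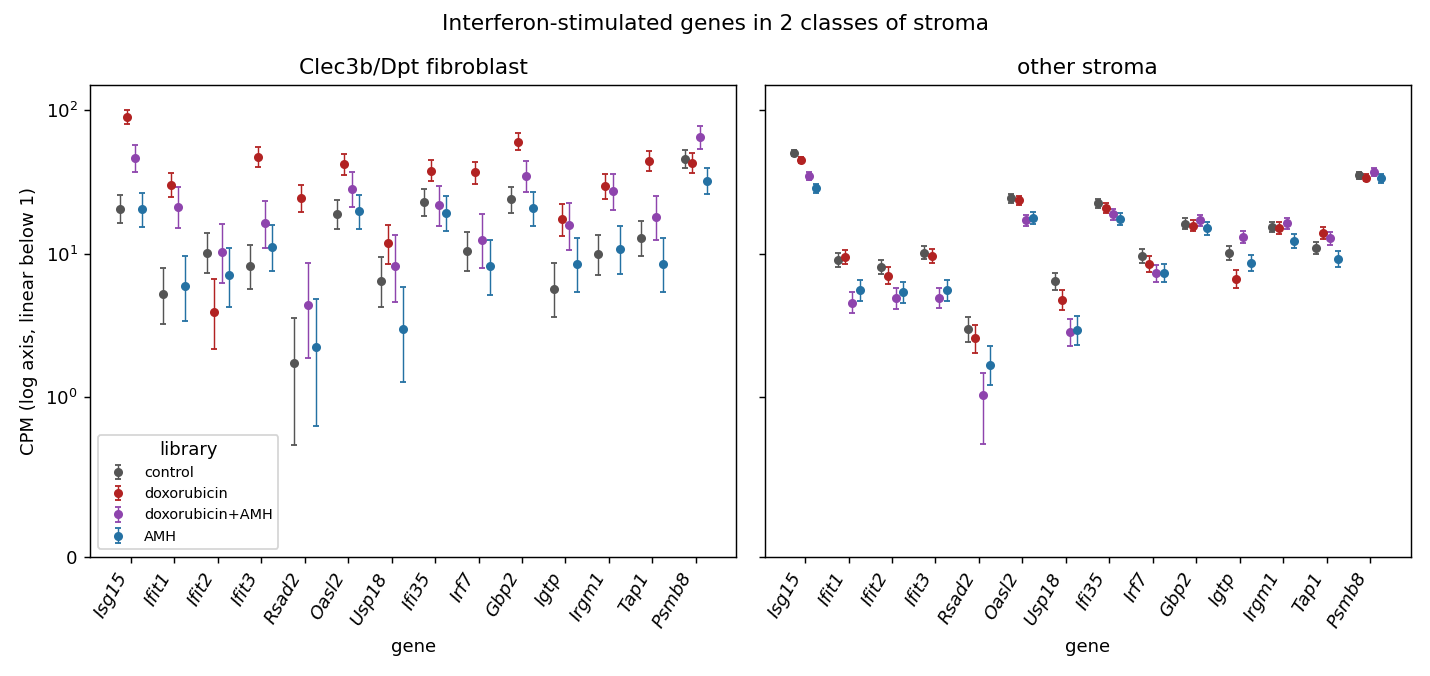
CPM (log axis, linear below 1) of 14 interferon-stimulated genes in Clec3b/Dpt fibroblasts (left) and the other stroma (right) in the 4 libraries, with 95% exact Poisson intervals. In the left panel Isg15 reaches 90.3 CPM in the doxorubicin library, and in the right panel it is at 44.9 CPM there and 50.5 CPM in the control.

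Among the other roles in these fibroblasts, Gbp2 and Tap1 were past 1.5-fold higher in both doxorubicin contrasts. Tap1 reached the 20 CPM floor through the doxorubicin library alone, so its place past that fold is no support for a difference. Gbp2, a guanylate-binding protein that acts on pathogen-containing vacuoles, was at 23.9, 60.5, 34.9 and 20.8 CPM, and Tap1, a subunit of the peptide transporter for MHC class I, at 12.9, 44.2, 18.0 and 8.54 CPM. Their log2 ratios for doxorubicin / control were 1.18 and 1.46, and for doxorubicin+AMH / AMH 0.63 and 0.76. Psmb8, which lies next to Tap1 on chromosome 17, was at 46.0, 42.8, 64.8 and 32.3 CPM, so its doxorubicin library did not exceed the control (-0.09), whereas doxorubicin+AMH exceeded AMH (0.90). The 3 antigen-processing genes summed to 68.4, 101, 101 and 52.7 CPM. Psmb9 and Tap1 overlap on opposite strands, and whether the counting used strand is not stated in the sources used here.

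The GTPases summed to 94.2, 176, 133 and 74.3 CPM, log2 ratios of 0.90 (0.71 to 1.09) and 0.84 (0.56 to 1.12) in the 2 doxorubicin contrasts. The sensors summed to 48.0, 76.0, 58.3 and 46.8 CPM, log2 ratios of 0.66 (0.39 to 0.94) and 0.32 (-0.07 to 0.70). Among transcription factors, which summed to 202, 272, 221 and 150 CPM (0.42, 0.29 to 0.56, and 0.56, 0.36 to 0.77), Irf7, the factor that amplifies type I interferon output, was at 10.4, 36.9, 12.5 and 8.17 CPM (a mean under 20 CPM, named after its values were seen). The 3 most abundant members had log2 ratios of 0.00, 0.26 and 0.58 for doxorubicin / control: Ifitm2 was at 741.8, 742, 747 and 746 CPM, Ifitm3 at 890.2, 1067, 1040 and 765 CPM and Bst2, which tethers virus particles to the cell, at 336, 503, 346 and 244 CPM.

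Of the 19 members above the 20 CPM floor in Clec3b/Dpt fibroblasts, 6 were past 1.5-fold higher for doxorubicin / control (Isg15, Ifit3, Oasl2, Ifi35, Gbp2, Tap1) and 0 lower, where 4.06% of 6460 genes were past it higher and 5.05% lower. Ifit3 and Tap1 reached the 20 CPM floor through the doxorubicin library alone, and Oasl2 through the 2 doxorubicin libraries. The place of these genes in this count and in those that follow is no support for a difference. For doxorubicin+AMH / AMH 6 were higher (Stat2, Isg15, Ifitm1, Gbp2, Psmb8, Tap1) and 0 lower, with 3.9% and 2.41% of genes. Isg15 and Gbp2 were in both groups of 6, and so was Tap1, whose place is no support in either. The share of all genes in both groups is not given here. For AMH / control 0 members were past 1.5-fold (0.526% of genes higher, 2.69% lower), and for doxorubicin+AMH / doxorubicin 1 was higher (Ifitm1) and 5 lower (Isg15, Ifit3, Ifi35, Gbp2, Tap1), with 5.94% and 6.44% of genes. The median log2 ratio over all 35 members was 0.45 and 0.44 in the 2 doxorubicin contrasts, beside -0.06 and 0.05 over all genes above the 20 CPM floor. Scaling by the median ratio over genes would move these contrasts by 0.11 and -0.10.

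The order was not the same in every group of gated fibroblasts. Most of the cells fell in joint cluster 13, led by Col1a1, Gsn, Dcn, Dpt and C3, where the effector sums were 119.9, 392, 277 and 112 CPM (251, 176, 102 and 209 cells) and the log2 ratios 1.71 in doxorubicin / control and 1.30 in doxorubicin+AMH / AMH. Gated cells in clusters 1 and 9, which hold cells of the other stroma too, did not have the same order: the sums were 255, 178, 129 and 139 CPM in cluster 1 (25 to 37 cells per library) and 154, 152, 112 and 117 CPM in cluster 9 (10 to 32 cells). Nor did the cells of cluster 13 that the gate left in the other stroma, with 179, 111, 114 and 76.3 CPM (48, 19, 25 and 52 cells). The tenth of cells with the most effector UMIs carried 43.7%, 59.9%, 60.6% and 60.1% of them. Without the tenth of cells with the most effector UMIs per UMI in each library the sums were 86.9, 176, 103 and 60.2 CPM and Isg15 was at 8.15, 41.95, 8.46 and 5.815 CPM. These cells were chosen by the same UMIs, so the values say only how much of each level a few cells held, not which libraries differ.

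After each cell was thinned to 2000 UMIs, 3.29% of Clec3b/Dpt fibroblasts of the control had an Isg15 UMI (11 of 334, exact interval 1.66% to 5.82%). The share was 12.3% with doxorubicin (29 of 236, 8.39% to 17.2%; 1 shallower cell was left out), 8.38% with doxorubicin+AMH (14 of 167, 4.66% to 13.7%) and 2.78% with AMH (7 of 252, 1.12% to 5.64%). Unthinned shares were 14.1%, 32.5%, 14.4% and 10.3%, at median depths of 11625, 14443, 9864 and 10277 UMIs. In granulosa cells, which stand in for background from free RNA, the thinned share was 0.820% in the control and 1.10% in the doxorubicin library, at median depths of 23819 and 23927 UMIs. The shares in the fibroblasts lay above the share in granulosa cells in the control and doxorubicin libraries. Granulosa cells had more UMIs per cell than the fibroblasts, so their thinned share is not an upper limit for background in the fibroblasts.

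Other genes moved in the same cells. Cdkn1a, a p53 target that stops the cell cycle after DNA damage, was at 112, 1349, 221 and 159 CPM in Clec3b/Dpt fibroblasts, and 10 of the 10 p53 targets above the 20 CPM floor (of 15 listed) were past 1.5-fold higher for doxorubicin / control there (4.06% of all genes) and 1 of 10 for doxorubicin+AMH / AMH (3.9%). Ccng1, Sesn2 and Zmat3 reached the floor through the doxorubicin library alone (Sesn2 was at 6.71, 72.3, 7.08 and 5.94 CPM), so their place in the count is no support for a difference. The 14 genes that tissue dissociation induces had a median of 650, 817, 564 and 755 CPM, with 1 past 1.5-fold higher and 1 lower for doxorubicin / control. The part of either in the result was not tested. The 8 macrophage markers summed to 21.1 to 35.3 CPM in these fibroblasts, against 20060 to 24010 CPM in macrophages, and Ptprc, which marks all leukocytes, was at 0 to 3.81 CPM.

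**Figure D4:**
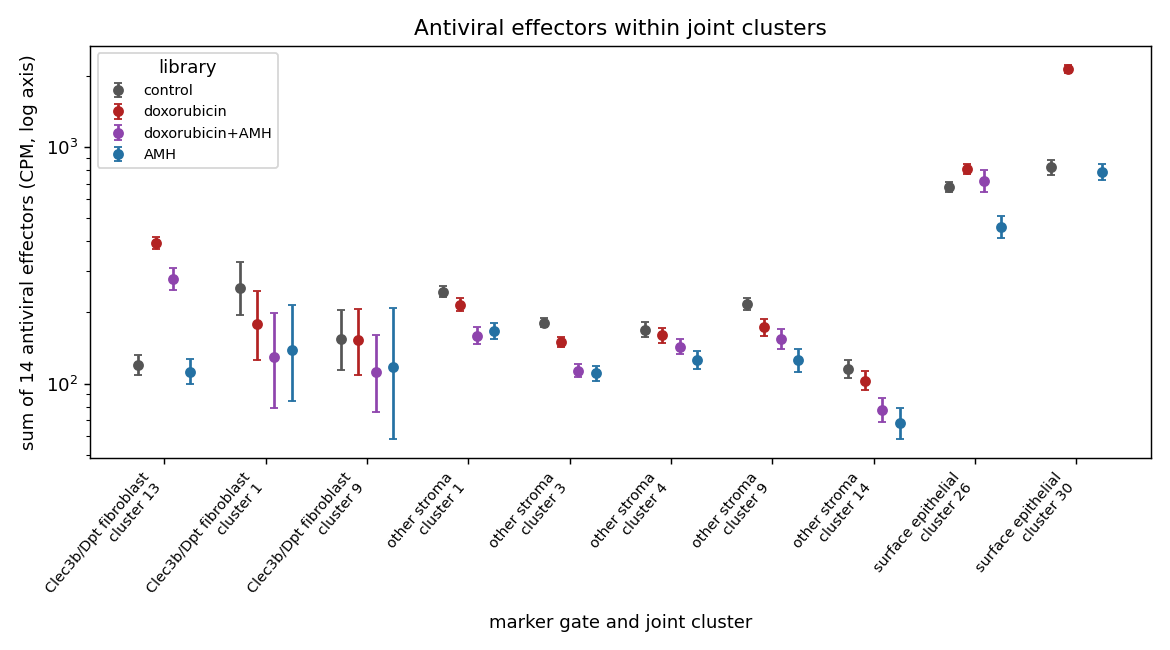
Sum of the 14 antiviral effectors in CPM (log axis) within joint clusters of 3 marker gates for the 4 libraries, with 95% exact Poisson intervals; a library with under 10 cells in a cluster has no point. Clec3b/Dpt cells of cluster 13 and surface epithelial cells of cluster 30 stand highest in the doxorubicin library, at 392 and 2137 CPM.

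One cluster of the surface epithelial gate had effector levels above those of the other gated clusters described here. In cluster 30, led by C3, Slpi, Crip1 and Upk3b, the effectors summed to 821 CPM in the control (40 cells), 2137 CPM with doxorubicin (36 cells) and 783 CPM with AMH (29 cells), and the doxorubicin+AMH library had 0 gated cells there. The log2 ratio for doxorubicin / control was 1.38. Isg15 was at 174, 445 and 179.7 CPM, Ifit3 at 27.4, 254 and 33.4 CPM and Rsad2 at 20.2, 229 and 20.5 CPM in these 3 libraries, so the doxorubicin library stood alone for each. In cluster 26, led by Lgals7, Igfbp5 and Nrg1 and with Upk3b, all 4 libraries had cells (62, 51, 31 and 25) and the sums were 675, 808, 719 and 458 CPM, a smaller log2 ratio of 0.26 in doxorubicin / control and 0.65 in doxorubicin+AMH / AMH.

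In the whole surface epithelial gate 18 of 27 members above the 20 CPM floor were past 1.5-fold higher for doxorubicin / control, where 12.2% of genes were, but the clusters present differ between these libraries, and Irf7, Ifit3, Rsad2 and Igtp reached the floor through the doxorubicin library alone. For doxorubicin+AMH / AMH 2 members were higher and 1 lower (11.5% and 13.4% of genes), with a median of -0.04 over the 35. For AMH / control 2 were higher and 4 lower (2.02% and 7.96%), and against doxorubicin alone doxorubicin+AMH had 1 higher and 18 lower (15.8% and 16.0%). Irf7, Ifit3, Rsad2 and Igtp were among these 18 too, so their place there is no support for a difference. Ifitm1 shows the unlike clusters: the gate held 496.9, 9.69, 479 and 573 CPM, and clusters 23 and 28, in which Ifitm1 was at 468 to 1927 CPM, had 0 and 1 cells in the doxorubicin library. In cluster 26 Ifitm1 was at 0 to 6.51 CPM. Signs of damage and dissociation moved in the same gate: Cdkn1a was at 128.5, 1289, 237 and 75.6 CPM, and the dissociation genes had a median of 965, 1242, 853 and 639 CPM. Past 1.5-fold higher for doxorubicin / control were 13 of 13 p53 targets above the floor, 5 of them (Sesn2, Zmat3, Fas, Pmaip1, Bbc3) there through the doxorubicin library, and 5 of 14 dissociation genes. Their part in the effector values was not tested.

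In most other cell types the effectors were lower in the libraries with AMH. The other stroma had 179 and 113 CPM in the control and AMH libraries, a log2 ratio of -0.66 (-0.72 to -0.59), and 162 and 120.1 CPM in the doxorubicin and doxorubicin+AMH libraries, a log2 ratio of -0.43 (-0.50 to -0.37). Blood endothelium had 659, 656, 526 and 408 CPM, log2 ratios of -0.69 (-0.80 to -0.59) when AMH is set against control and -0.32 (-0.46 to -0.18) in the pair with doxorubicin. Macrophages had 616, 712, 446 and 457 CPM, log2 ratios of -0.43 (-0.57 to -0.29) and -0.67 (-0.86 to -0.49). Both libraries with AMH lay below both others in each of these 3 types.

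Heat-shock genes that tissue dissociation induces were highest in the AMH library, in types with lower effectors there and in the Clec3b/Dpt fibroblasts, whose effector ratio was -0.11. The exception was Hspa1a in the surface epithelial gate, at 47.96, 90.91, 65.71 and 81.21 CPM, highest in the doxorubicin library. Hspa1a was at 119.9, 152, 126 and 319 CPM in the other stroma, 49.9, 67.3, 44.6 and 165 CPM in blood endothelium and 192.5, 198, 107 and 431 CPM in macrophages. Hspa1b had log2 ratios of 1.73, 1.67 and 1.95 in AMH / control in these 3 types, 1.14 in granulosa cells, 1.42 in theca, 1.05 in mural smooth muscle and 1.45 in the fibroblasts. They were -0.45, -1.25 and -0.61 in doxorubicin+AMH / doxorubicin in the 3 types. Of the 14 dissociation genes 2 were past 1.5-fold higher and 0 lower for AMH / control in each of the 3 types (0.345%, 2.21% and 3.43% of all genes were higher) and in the fibroblasts (0.526%). Their median was at 634, 618, 588 and 596 CPM in the other stroma, 411, 398, 414 and 373 CPM in endothelium and 536, 414.5, 330.3 and 440.0 CPM in macrophages. The part of these genes in the effector values was not tested.

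Granulosa cells had the same order at a far lower level, with log2 ratios of -0.30 (-0.39 to -0.21) and -0.18 (-0.28 to -0.09). By granulosa cluster, the AMH / control interval lay below 0 only in clusters 2 (-0.64, -0.8 to -0.47) and 11 (-0.35, -0.59 to -0.1). No granulosa cluster had a doxorubicin+AMH / doxorubicin interval beyond 0 in either direction. Clusters 27 and 31 had 100 and 79 cells in the doxorubicin library, at 59.35 and 47.52 CPM, and almost none in the others. Scaling by the median ratio over genes instead of total UMIs shifts the AMH / control ratios of granulosa cells up by 0.11, to -0.19 for the effector sum. Over the 8 gates the effector interval lay below 0 in 7 for AMH / control, Clec3b/Dpt fibroblasts being the exception, and in 8 for doxorubicin+AMH / doxorubicin, the mixed surface epithelial gate and theca included. The fibroblast value of -0.11 was -0.10 (-0.33 to 0.13) within cluster 13, -0.02 with scaling by the median ratio, -0.34 with a stricter gate and -0.39 with each cell weighted equally. Within theca the AMH / control ratio was -1.29 (-1.63 to -0.97) in cluster 10 but 0.42 (0.06 to 0.78) in cluster 15 and 2.19 (0.33 to 5.24) in cluster 8, and doxorubicin+AMH / doxorubicin was 0.38 (0.16 to 0.59) in cluster 10. Within joint clusters of the 7 gates other than the surface epithelial one, the AMH / control ratio was below 0 in 23 of 27 (15 beyond the counting interval, and 2 above 0 beyond it), and the doxorubicin+AMH / doxorubicin ratio in 23 of 26 (9 and 1).

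The sensors had this order too, with the interval below 0 in 7 and 8 of the 8 gates, while transcription factors and antigen-processing genes did not: their intervals lay below 0 in 4 gates each and above 0 in 2 each for AMH / control, and below 0 in 2 and above 0 in 4 for doxorubicin+AMH / doxorubicin. For membrane proteins 6 gates lay below 0 and 1 above in the first contrast, and 4 and 1 in the second. For GTPases the numbers were 4 and 0, then 3 and 2. The summed transcription factors were higher for doxorubicin+AMH / AMH beyond the counting interval in 8 of 8 gates and for doxorubicin / control in 4. In granulosa cells they were at 58.6, 59.5, 70.1 and 62.4 CPM. Antigen-processing genes there were at 21.8, 25.0, 28.0 and 21.5 CPM. Batch and treatment cannot be told apart, since each treatment is 1 library.

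In the other stroma 13 members were above the 20 CPM floor, and Isg15 alone was past 1.5-fold lower for AMH / control, where 0.644% of genes were. Isg15 was at 50.5, 44.9, 34.9 and 28.6 CPM, a log2 ratio of -0.72 in AMH / control and -0.32 in doxorubicin+AMH / doxorubicin. Ifitm2 was at 516, 526, 542 and 524.5 CPM, Bst2 at 542, 534, 514 and 466 CPM and Ifitm3 at 502, 518, 509 and 441 CPM, all nearer to level. Stat2 was at 30.8, 31.4, 26.3 and 22.2 CPM, Gbp7 at 37.9, 32.0, 29.0 and 26.9 CPM and Oasl2 at 24.3, 23.5, 17.2 and 17.8 CPM, each lower in both libraries with AMH than in both others. No member was past it higher in that contrast (0.345% of genes), and 0 were in either direction in the others: 0.105% and 0.0899% of genes in doxorubicin / control, 0.0749% and 0.135% in doxorubicin+AMH / AMH, 0.12% and 0.285% for doxorubicin+AMH / doxorubicin. A single cell of the doxorubicin library held 323 of the 5001 effector UMIs of that class. Without it the doxorubicin library had 152 CPM.

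In blood endothelium 27 members were above the 20 CPM floor, and 5 were past 1.5-fold lower for AMH / control (Isg15, Ifit1, Rsad2, Oasl2, Ifi44), where 3.37% of genes were, and 1 higher (Ifitm1, beside 2.21%). Isg15 was at 149, 153, 134 and 69.5 CPM, and only the AMH library stood apart. Ifit1 was at 39.8, 34.6, 20.1 and 21.7 CPM, Rsad2 at 60.8, 58.1, 40.2 and 34.4 CPM and Ifi44, an interferon-induced protein of microtubular aggregates, at 77.2, 71.7, 55.1 and 45.0 CPM. Both libraries with AMH lay below both others for these 3. The AMH library's endothelial cells carried 242 CPM of macrophage markers, against 27.9 to 35.1 CPM in the other libraries, and their part in the values was not tested. For doxorubicin / control 0 members were past 1.5-fold in either direction (0.507% and 1.53% of genes). For doxorubicin+AMH / AMH 2 were higher (Isg15, Psmb8, beside 2.92%) and 0 lower (2.78%), and for doxorubicin+AMH / doxorubicin 1 was higher (Ifitm1, beside 3.13%) and 1 lower (Ifit1, beside 2.63%). Psmb8 was at 159.5, 179, 193 and 124 CPM, and the most abundant member, Ifitm3, at 1244, 1306, 1436 and 1024 CPM, both lowest in the AMH library.

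Ifitm1, a membrane protein that restricts viral entry, had opposite orders in endothelium and granulosa cells. In blood endothelium it was at 19.0, 15.9, 51.6 and 65.4 CPM, log2 ratios of 1.56 in AMH / control and 1.44 in doxorubicin+AMH / doxorubicin. Both libraries with AMH were above both others, and Ifitm1 reached the 20 CPM floor in endothelium through these 2 alone, so its place in the counts of both contrasts is no support for a difference. In granulosa cells, where its mean was under 20 CPM and it is named after its values were seen, it was at 18.3, 27.0, 4.15 and 5.72 CPM, with both libraries with AMH below both others.

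Among granulosa clusters with cells in all 4 libraries, Ifitm1 was highest in joint cluster 11, led by Slc18a2, Cntn4, Dpf3 and Amh, where Ifitm1 was at 59.0, 78.4, 6.94 and 8.76 CPM (872, 1066, 37 and 67 UMIs from 367, 322, 164 and 242 cells). Its log2 ratios in that cluster were -2.22 in AMH / control and -2.80 in doxorubicin+AMH / doxorubicin. In the 4 largest other granulosa clusters Ifitm1 was at 1.20 to 8.94 CPM in every library. Cluster 31, which had 79 cells in the doxorubicin library and 0 to 2 in the others, held 261 CPM.

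**Figure D5:**
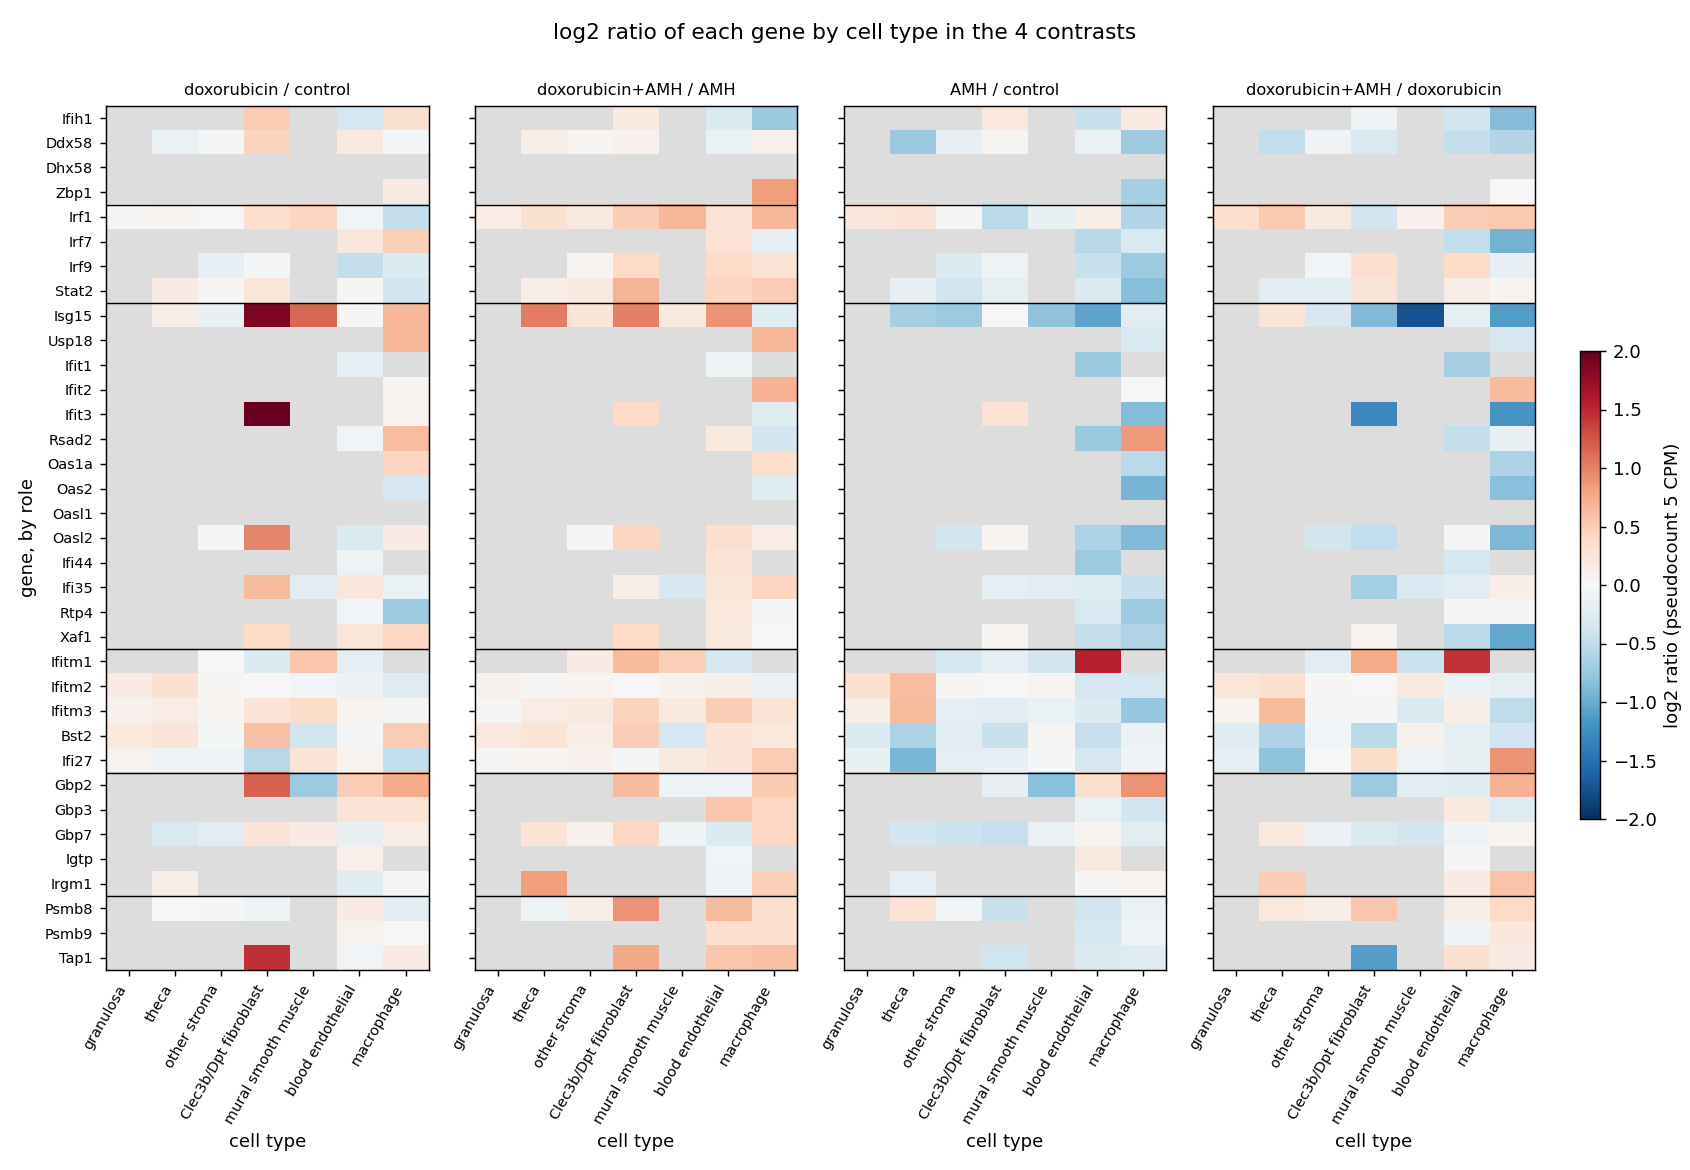
The log2 ratio (5 CPM added) of each interferon-stimulated gene in 7 marker-gated cell types in the 4 contrasts; red is higher in the first-named library, and grey marks genes with a mean under 20 CPM. The Clec3b/Dpt column is red for Isg15, Ifit3, Gbp2 and Tap1 under doxorubicin / control, and blue prevails among effectors in endothelium and macrophages under AMH / control. In that column Ifit3 and Tap1 reached 20 CPM through the doxorubicin library alone.

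In macrophages 29 of 35 members were above the 20 CPM floor, more than in any other type. For AMH / control 11 were past 1.5-fold lower and 2 higher, beside 4.8% and 3.43% of genes, and for doxorubicin+AMH / doxorubicin 9 were lower and 3 higher, beside 10.4% and 5.66%. Ifit3, Oas2 and Oasl2 were among those lower in both. Ifit3 was at 54.1, 57.2, 22.4 and 27.5 CPM, and Oas2, an enzyme that makes the activator of RNase L, at 43.3, 33.3, 16.3 and 20.3 CPM. Oas2 reached the floor through the 2 libraries without AMH, so its place in these counts is no support for a difference. Both libraries with AMH lay below both others for each of them, as they did for Xaf1 (52.3, 71.9, 32.6 and 32.8 CPM) and Ifitm3 (1195, 1217, 852 and 703 CPM).

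Gbp2 and Ifi27 had other orders of libraries in macrophages. Gbp2 was at 37.9, 66.5, 110.1 and 75.2 CPM, lowest in the control. Ifi27 was at 111, 77.2, 149 and 104 CPM, lowest in the doxorubicin library. The doxorubicin contrasts had 4 members higher and 1 lower each (4.56% and 5.99% of genes in doxorubicin / control, 3.43% and 7.13% in doxorubicin+AMH / AMH), and Usp18, which removes Isg15 and restrains the interferon receptor, was the member higher in both, at 17.5, 30.6, 23.5 and 13.1 CPM. It reached the 20 CPM floor through the 2 doxorubicin libraries, so its place in these counts is no support for a difference. Gbp2 and Usp18 are named in macrophages after their values were seen. Bst2 was at 594, 841, 640.2 and 552 CPM and Irf7 at 59.6, 85.2, 41.8 and 47.2 CPM, both highest with doxorubicin. Isg15 was at 119.7, 192, 85.6 and 102 CPM there, highest with doxorubicin and lowest with doxorubicin+AMH.

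In theca the contrasts with AMH compare unlike cells. Most theca cells of the control and doxorubicin libraries lay in cluster 10, led by Cyp11a1 and Cyp17a1, and most of those with AMH in cluster 8, led by Prss35 and Aldh1a1. Over the gate Bst2 was at 551, 659.6, 431 and 353 CPM and Ifi27 at 419, 399, 227 and 220.0 CPM, and 4 of 11 members were past 1.5-fold lower for AMH / control, beside 7.43% of genes, and 2 higher (Ifitm2, Ifitm3), beside 5.26%. Of the 14 dissociation genes 6 were higher and 0 lower in that contrast, with a median of 480, 530.0, 771 and 737 CPM, and their part in these values was not tested. Within cluster 10 Bst2 was at 532, 629, 638 and 476 CPM, so the order of the whole gate did not hold there, while Ifi27 was at 452, 439, 342 and 287 CPM. Within cluster 15 Ifi27 was at 186, 211, 169 and 183 CPM.

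Irf1, the founding interferon regulatory factor, was highest in theca at 259.9, 267, 384 and 310 CPM. For doxorubicin / control 0 of 11 theca members were past 1.5-fold (0.417% and 0.241% of genes). Isg15 in theca was at 23.6, 26.3, 32.2 and 13.2 CPM, a log2 ratio of 1.03 for doxorubicin+AMH / AMH, the contrast in which 2 members (Isg15, Irgm1) were past 1.5-fold higher beside 0.465% of genes, and 0 lower, beside 0.417%. For doxorubicin+AMH / doxorubicin 1 was higher (Ifitm3, beside 5.0%) and 2 lower (Bst2, Ifi27, beside 7.31%).

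In mural smooth muscle Isg15 was at 22.9, 57.0, 13.5 and 11.1 CPM, highest with doxorubicin, a log2 ratio of 1.15 in doxorubicin / control and 0.20 in doxorubicin+AMH / AMH. It was the only member of 10 past 1.5-fold higher for doxorubicin / control, beside 2.49% of genes, and Gbp2 (32.6, 17.9, 14.7 and 16.1 CPM) the only one lower, beside 3.17%. Isg15 reached the 20 CPM floor there through the doxorubicin library and Gbp2 through the control. Their place in these counts and in those that follow is therefore no support for a difference. For doxorubicin+AMH / AMH 1 was higher (Irf1, beside 1.43%) and 0 lower (2.73%), for AMH / control 0 were higher (0.362%) and 2 lower (Isg15, Gbp2, beside 1.74%), and against doxorubicin alone doxorubicin+AMH had 0 higher (1.09%) and 1 lower (Isg15, beside 4.44%). Within cluster 20, led by Rgs5, a pericyte marker, Isg15 was at 111, 131, 86.4 and 75.7 CPM. Within cluster 0, led by Acta2 and Tagln, it was at 8.80, 23.8, 4.29 and 5.77 CPM, and cluster 17 had 16 cells in the doxorubicin library against 51 to 176 in the others. Irf1 was at 67.5, 92.7, 98.7 and 60.5 CPM and Ifitm1 at 128, 191, 141 and 99.2 CPM in the whole gate, both higher with doxorubicin on either background.

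In granulosa cells 0 of 5 members above the 20 CPM floor were past 1.5-fold in any contrast. Of all genes 0.0757% were past it higher and 0.0605% lower in doxorubicin / control, 0.136% and 0.394% in doxorubicin+AMH / AMH, 0.681% and 1.77% for AMH / control, and 0.848% and 2.15% for doxorubicin+AMH / doxorubicin. Bst2 was at 262, 299, 249.7 and 217 CPM and Ifitm2 at 204, 229.5, 272 and 255 CPM. These 2 had unlike orders: Bst2 was highest with doxorubicin and Ifitm2 was higher in both libraries with AMH. Irf1 was at 36.8, 37.8, 49.1 and 43.9 CPM, Ifi27 at 93.6, 98.6, 85.1 and 84.1 CPM and Ifitm3 at 24.4, 25.9, 27.4 and 27.0 CPM.

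Among cell types with under 50 cells in a library, lymphatic endothelium (31 to 62 cells) had effector sums of 599, 599, 356 and 243 CPM, with both libraries with AMH below both others. T or NK cells (20 to 55 cells) had 219, 261, 257 and 409 CPM, with the AMH library highest.

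Interferons themselves were scarcely detected. Over all kept cells Ifna1, Ifna2, Ifna4 and Ifna5 had 0 UMIs in each library, which allows up to 3 UMIs, and Ifnb1 had 4 UMIs, all in the AMH library. Ifng, the type II interferon of T and NK cells, had 53, 37, 67 and 25 UMIs. Ifne had 15, 0, 5 and 25 UMIs and Ifnk 24, 23, 18 and 18. At this depth no order between libraries is detectable for the 4 Ifna genes.

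Of 9 receptor and kinase genes, 7 were above the 20 CPM floor in Clec3b/Dpt fibroblasts, and 0 were past 1.5-fold in any contrast there. In macrophages 1 of 8 was lower for doxorubicin+AMH / doxorubicin (10.4% of genes), and in the mixed surface epithelial gate 2 of 7 were higher and 1 lower for doxorubicin / control (12.2% and 17.6% of genes). Ifnar1 was at 22.9, 18.6, 18.5 and 20.1 CPM and Ifngr1 at 69.6, 46.1, 58.3 and 67.6 CPM in the fibroblasts. Of 11 genes found of 13 symbols listed for interferon induction, such as Tbk1 and Irf3, 3 were above the floor in the fibroblasts, and 1 was past 1.5-fold, lower for doxorubicin+AMH / doxorubicin (6.44% of genes). In macrophages 6 were, with 1 lower for doxorubicin / control (5.99%), 2 higher for doxorubicin+AMH / AMH (3.43%) and 2 lower for AMH / control (4.8%). Of 8 genes that restrain the response, such as Socs1, 4 were above the floor in the fibroblasts, with 1 higher for doxorubicin+AMH / doxorubicin (5.94%). In macrophages 6 were, with 1 lower each for doxorubicin / control (5.99%) and AMH / control (4.8%), and 1 higher and 1 lower for doxorubicin+AMH / doxorubicin (5.66% and 10.4%).

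Of 34 other known targets, 22 were above the 20 CPM floor in Clec3b/Dpt fibroblasts, with 4 higher and 0 lower past 1.5-fold for doxorubicin / control (4.06% and 5.05% of all genes) and 7 higher and 0 lower for doxorubicin+AMH / AMH (3.9% and 2.41%). One of the 4, Isg20 (18.6, 33.8, 17.4 and 20.8 CPM), reached the floor through the doxorubicin library, so its place in the count is no support for a difference. Cxcl10, a chemokine that attracts T cells, was at 111, 269.8, 119 and 122 CPM, and the doxorubicin library stood alone. Ifi27l2a was at 290.1, 628, 399.9 and 272 CPM, and Iigp1, an immunity-related GTPase, at 45.2, 79.3, 121 and 35.6 CPM. B2m, the light chain of MHC class I, was at 273, 321, 354 and 251 CPM. In macrophages 28 of the 34 were above the floor, with 9 lower and 1 higher for AMH / control (4.8% and 3.43% of all genes). For doxorubicin+AMH / doxorubicin 3 were lower and 2 higher (10.4% and 5.66%). For doxorubicin / control 2 were lower and 0 higher (5.99% and 4.56%), and for doxorubicin+AMH / AMH 0 were lower and 4 higher (7.13% and 3.43%).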

How the data were processed

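The 4 libraries were 10x 3′ v3.1 libraries, and the deposited values are raw UMI counts per gene and cell, made by the authors with Cell Ranger 7.0.0 per the file headers. The submitters' processing notes name mm10, R 4.2.0 and Seurat 4.1.0. The annotation release, intron counting and strand setting are not given in the sources used here, which bears on genes that overlap on opposite strands.

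Cells under 1000 UMIs or over 20% mitochondrial UMIs were dropped, and the 2293 cells with the highest Scrublet scores (0.8% per 1000 cells) were removed as doublets. Each cell was gated on marker genes (score of at least 0.25 and 0.10 above the next type); the markers were listed at the outset, and the score limits were set after values were seen. Joint Leiden clusters (scanpy 1.11.5, leidenalg 0.10.2, 2000 variable genes, 30 components, resolution 1) served as an alternative. UMIs were summed per type and library. Scripts were checked on simulated data, and intervals were computed with scipy 1.17.1.

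The members, gene lists and tests were chosen with earlier results of these data known. Named in each type were up to 3 members with the highest mean and up to 6 with the largest log2 ratio among those with a mean of at least 20 CPM; other genes were chosen after their values were seen. Alternatives covered cell filters, doublets, scaling, pseudocount, floor, fold and gating. One gene of the pathway lists, and with it the count of the list of signalling and other factors, is not reported here.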

Additional observations from a re-analysis of the deposited data

Results flagged for a closer look

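Several interferon-stimulated genes were past 1.5-fold in opposite directions in different cell types under the same contrast. With 1 library per group these differences between types were not tested. Rsad2 for AMH / control had a log2 ratio of -0.74 in blood endothelium and 0.85 in macrophages. Ifitm3 for AMH / control was at 0.63 in theca, where the clusters differ between libraries, and -0.76 in macrophages. Ifi27 for doxorubicin+AMH / doxorubicin was at -0.80 in theca and 0.90 in macrophages.

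Gbp2 appeared in 3 contrasts. For doxorubicin / control it was at 1.18 in Clec3b/Dpt fibroblasts, -0.72 in mural smooth muscle and 0.74 in macrophages. For AMH / control it was at -0.83 in mural smooth muscle, where Leiden clusters in place of gates gave 0.14, and 0.90 in macrophages. In mural smooth muscle Gbp2 (32.6, 17.9, 14.7 and 16.1 CPM) reached the 20 CPM floor through the control library alone, so its 2 values there are no support for an opposite direction. For doxorubicin+AMH / doxorubicin it was at -0.72 in Clec3b/Dpt fibroblasts and 0.69 in macrophages.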

How the results depend on the processing

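In 4 main cell types 91 of 112 alternative values of the effector ratios moved by less than the counting interval. With doublets kept, macrophages gave 0.04 for doxorubicin / control and -0.62 for AMH / control. Scaling by the median ratio over genes gave -0.19 in granulosa cells and -0.58 in the other stroma for AMH / control. With each cell weighted equally, doxorubicin / control was -0.20 in the other stroma, 1.14 in Clec3b/Dpt fibroblasts and -0.13 in macrophages, doxorubicin+AMH / AMH 0.00 in the other stroma, and AMH / control -0.39 in the fibroblasts. With Leiden clusters in place of gates, the other stroma gave -0.29 (doxorubicin / control) and -0.35 (doxorubicin+AMH / doxorubicin), the fibroblasts 1.19 for doxorubicin+AMH / AMH, and macrophages -0.26 for AMH / control.

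Alternatives chosen after seeing the data moved the fibroblasts. A score of at least 0.40 gave 1.95, 1.67 and -0.34 for doxorubicin / control, doxorubicin+AMH / AMH and AMH / control. Cells of cluster 13 gave 1.71 and 1.30 in the first pair of these, and -0.50 between doxorubicin+AMH and doxorubicin. Without the tenth of cells with the most effector UMIs, a choice made on the outcome itself, doxorubicin / control was 1.02 and AMH / control -0.53. The causes were not tested.

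Over 7 types, 114 pairs of member and type were above the 20 CPM floor and 187 above 5 CPM. Those past the fold numbered 11 higher and 2 lower for doxorubicin / control (1.72% and 2.28% of all genes), 20 and 5 with a floor of 5 CPM (2.42% and 3.28%), and 5 and 0 at 2-fold (0.411% and 0.542%). For doxorubicin+AMH / AMH they were 15 and 1 (1.76% and 2.26%), 24 and 3 (2.76% and 3.24%), and 2 and 0 (0.269% and 0.631%). For AMH / control they were 5 and 23 (1.8% and 3.16%), 7 and 37 (2.37% and 3.61%), and 1 and 1 (0.483% and 0.662%). For doxorubicin+AMH / doxorubicin they were 6 and 18 (3.06% and 4.72%), 11 and 29 (4.21% and 5.49%), and 1 and 6 (0.69% and 1.27%). The counts with the 20 CPM floor include genes described above as reaching it only through the libraries in which they were high. Those with a floor of 5 CPM were not checked for this. These counts are therefore no support for a difference between libraries. Of 441 alternative values for named members 368 moved by less than the counting interval, 72 by more, and 1 changed sign: Gbp2 for AMH / control in mural smooth muscle was 0.14 with Leiden clusters, against -0.83. No paired analysis was possible because each group is 1 library. Counting error limits types with few cells most.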
